A study of Vitis vinifera with 6 samples.

Results

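Gypsy elements are, together with Copia elements, the main superfamilies of long terminal repeat (LTR) retrotransposons in plants. They are Class I transposable elements (TEs), which move by way of an RNA copy that is reverse transcribed and inserted elsewhere in the genome. In plants Gypsy elements are abundant in heterochromatin, and most copies are kept silent by DNA methylation, which small RNAs direct in part (RNA-directed DNA methylation). Of the 232 TE families in the deposited table, the 36 whose identifier gives Gypsy as the superfamily were described here. The table also held 101 Copia families, 10 LINE families, 40 MULE families and 31843 genes. The Gypsy families carry serial numbers apart from Gypsy-GYVIT1, Gypsy-V1 and Gypsy-Gret1. The last has the name of the grapevine retrotransposon whose insertion beside a MYB regulator of anthocyanin synthesis is known from white-berried cultivars.

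RNA came from 3 young leaf samples and 3 samples of proliferating embryogenic callus (EC) of *Vitis vinifera* cv. Chardonnay, with 1 library each. EC is a mass of dedifferentiated cells that can form embryos. Here it was raised from anthers on solid medium in the dark, and each EC sample pooled 3 Petri dishes, while each leaf sample pooled 5 leaves of the same vines. Tissue, light, culture medium and time in culture differ together between the groups and cannot be told apart. In these bulk samples a smaller number of transcribing cells and less RNA per cell cannot be told apart either. The tissue labels were not checked against marker genes, since no gene identifier of the table matched a name in the reference used here.

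A family's count pools the reads of every copy, whether the copy lies inside a gene or between genes, and it is not corrected for the length or copy number of the family. Read numbers of different families are therefore given as shares of sequenced reads and not as expression per copy. Gypsy families took 37460 to 91416 counts per library, out of 13123072 to 24209752 counted reads. Leaf replicate 3 had the fewest counted reads and stood apart from the other leaf libraries. The paper lists more sequenced read pairs for it than for leaf replicate 2, but the lowest mapping rate of the RNA libraries. Its TMM factor (trimmed mean of M-values, the scaling used by the test) was 0.657, against 0.958 and 0.969 for leaf replicates 1 and 2 and 1.15 to 1.19 for EC. The number of calls and some log2 fold changes are given with and without it, while most sums and shares are given for each library. Unless named otherwise, levels are counts per 1000000 of TMM-scaled library size (CPM), the scale on which families were tested, and the 3 values of a tissue are those of replicates 1, 2 and 3 by their number.

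The make-up of the Gypsy reads differed between the tissues. Gypsy-18 and Gypsy-19 together held 43.7, 44.1 and 24% of all Gypsy reads of leaf, and 7.63, 7.73 and 7.54% of those of EC. The mean share was 37.3% in leaf with an SD of 11.5 and 7.63% in EC with an SD of 0.0926 (n = 3 each). The leaf shares were all above the EC shares, and EC minus leaf was -29.6 percentage points. The pair was taken with its values known, so this is a description and no test is given. Since these are shares within a library, no scaling between libraries enters them. Gypsy-18 alone held 23.2, 27.3 and 8.95% of the Gypsy reads of leaf and 2.78, 2.86 and 2.85% of those of EC. Gypsy-19 held 20.5, 16.8 and 15% of them in leaf, but 4.85, 4.87 and 4.69% in EC. Leaf replicate 3 was intermediate for Gypsy-18, and without it the difference in the summed share was -36.3 percentage points.

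In EC the Gypsy reads were spread over more families. The effective number of families, which is 1 divided by the sum of the squared read shares, was 7.69, 7.31 and 10.6 for leaf, while EC had 11.8, 12 and 12. In a two-sided exact permutation test p was 0.1, which is the lowest value that 3 libraries against 3 can give, and 0.129 after Benjamini-Hochberg adjustment over the 9 single values computed. The 5 families with the most reads in a library held 68.1 ± 7.31% of its Gypsy reads in leaf, compared with 58.7 ± 0.0636% in EC (mean ± SD of 3 libraries). Gypsy-18 had the most reads in leaf replicates 1 and 2, Gypsy-26 in leaf replicate 3 and in EC replicates 1 and 3, and Gypsy-9 in EC replicate 2. Ranked by mean CPM, Gypsy-18 went from rank 1 of the 36 families in leaf to rank 9 in EC, and Gypsy-28 from 8 to 15. In the other direction, Gypsy-13 went from rank 17 to 7, Gypsy-29 from 21 to 12 and Gypsy-4 from 23 to 16. Without leaf replicate 3 the leaf rank of Gypsy-13 was 14 and that of Gypsy-28 was 7, while those of Gypsy-18, Gypsy-29 and Gypsy-4 were as with all libraries.

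**Figure D1:**
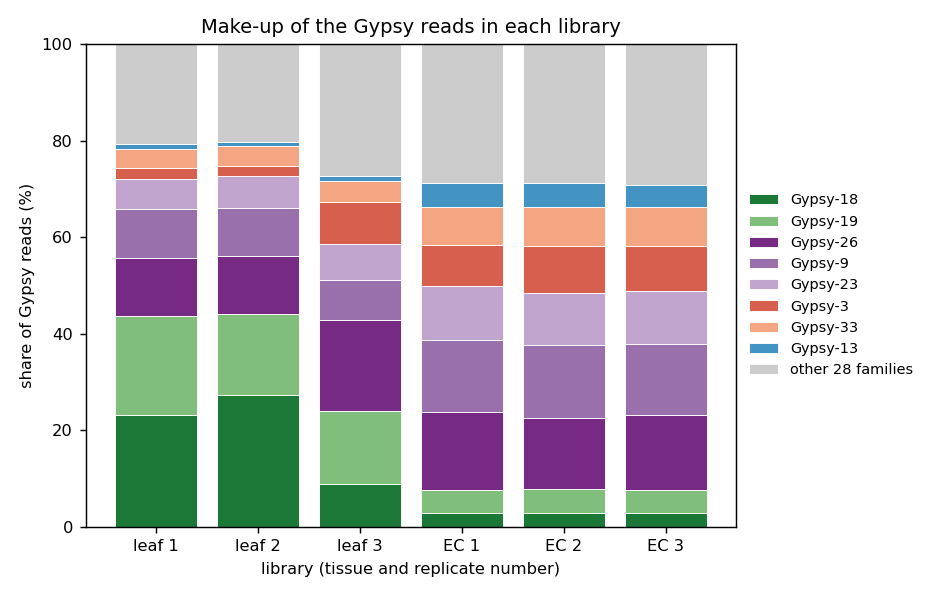
Share of the Gypsy reads (vertical axis, %) held by single families in each of the 6 libraries (bars), with 8 families named and the other 28 summed in grey. The green segments, Gypsy-18 and Gypsy-19, fill 43.7, 44.1 and 24% of the bars of leaf replicates 1, 2 and 3 and at most 7.73% of an EC bar.

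Single families were then compared between the tissues with edgeR's quasi-likelihood test on genes and TE families together, and the Benjamini-Hochberg adjustment covered all 21550 features tested. Of the 36 Gypsy families, 35 passed the filter on low counts. The adjusted p was under 0.05 for 15 of them, 12 with the higher level in EC (34.3%) and 3 with the higher level in leaf (8.57%). Of all features tested, 24.8% were called higher in EC and 29.3% higher in leaf, and of the TE families other than Gypsy, 36.9% and 6.7%. The Gypsy share called in each direction was thus close to that of the other TE families. The 3 EC values were all higher than the 3 leaf values in 16 of the 35 families and all lower in 4, against 35.3% and 34.2% of all features and 49.2% and 11.7% of the TE families other than Gypsy. The median log2 fold change of the 35 families was 0.63, that of all features -0.041.

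The counts depended on the scaling. In reads per 1000000 counted reads (RPM), which use no TMM factor, the 3 EC values were all higher than the 3 leaf values in 28 of the 35 families and all lower in 3. In RPM this held for 48.6% and 24.4% of all features and for 76.5% and 5.03% of the TE families other than Gypsy. With library sizes alone in edgeR, 22 Gypsy families were called higher in EC, among them the 12 called with TMM factors, and 2 higher in leaf (Gypsy-18 and Gypsy-19). In that fit 33.9% of all features and 66.5% of the other TE families were called higher in EC, and 22.1% and 2.79% higher in leaf.

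The number of calls changed most when leaf replicate 3 was left out. Without it, 29 Gypsy families were called higher in EC and 4 higher in leaf, where 38.5% and 41.3% of all features and 71.2% and 11.6% of all TE families were called, and the median log2 fold change of the Gypsy families was 0.98. All 15 families called with every library kept their call and direction in this fit. With another library left out in its place, 4 to 5 families were called higher in EC and 2 to 3 higher in leaf. The shares of all features called in those fits are not given here. These counts therefore do not show a loss particular to the Gypsy families. Gypsy-4, Gypsy-11, Gypsy-13, Gypsy-18, Gypsy-19 and Gypsy-29 passed whichever library was left out, with adjusted p-values up to 0.0283 (edgeR).

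**Figure D2:**
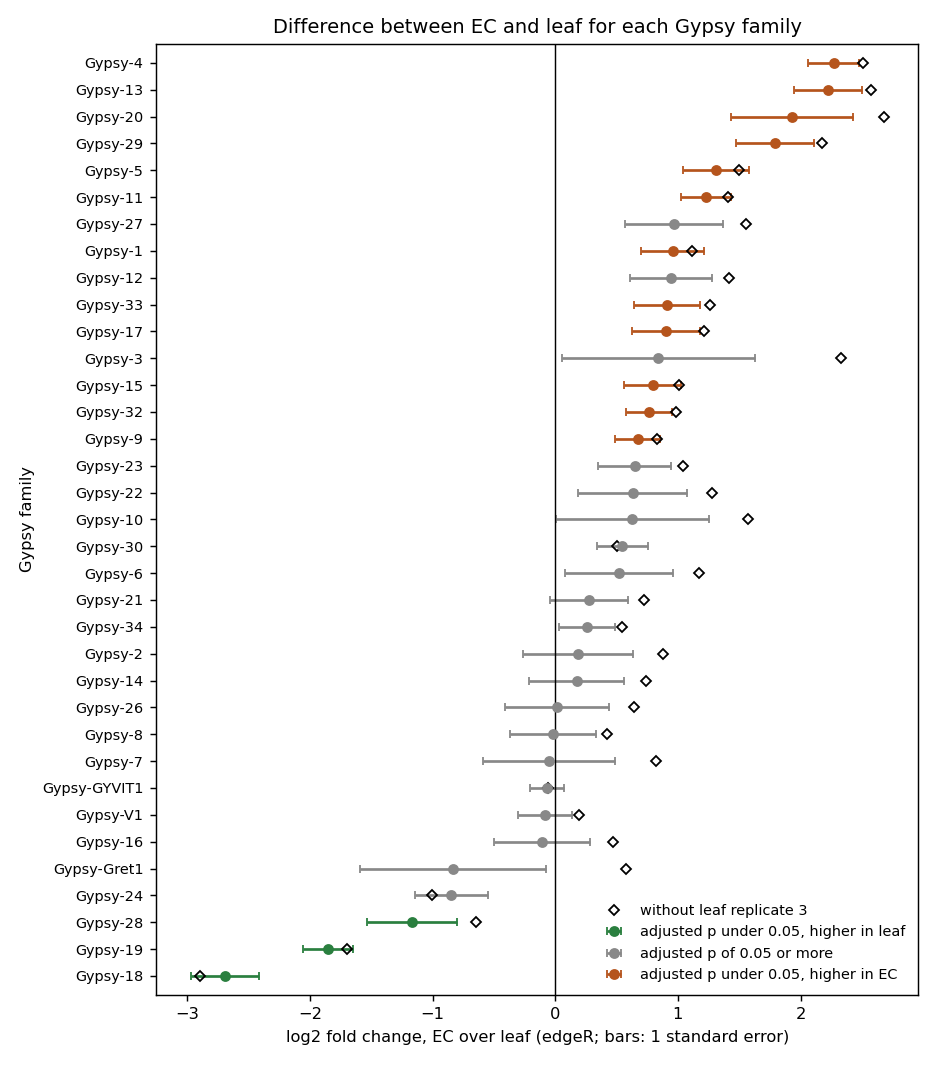
Log2 fold change of EC over leaf (horizontal axis, edgeR) for the 35 tested Gypsy families (rows), with bars of 1 standard error and, as open diamonds, the value without leaf replicate 3. Gypsy-4 at 2.27 and Gypsy-13 at 2.22 are at the EC end and Gypsy-18 at -2.69 is at the leaf end, and most diamonds lie to the right of their points.

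Of the families called higher in leaf, Gypsy-18 had the largest difference. It stood at 635, 726 and 389 CPM in leaf and 91.4, 89.1 and 90.2 CPM in EC. The leaf libraries were all above the EC libraries, whose coefficient of variation (CV, the SD as a percentage of the mean) was 1.31%, while leaf replicate 3 was the lowest of the leaf libraries. The means were 583 ± 174 CPM in leaf and 90.2 ± 1.18 CPM in EC (mean ± SD, n = 3), 6.46-fold higher in leaf, with a log2 fold change of -2.69 (standard error 0.28, adjusted p = 0.00112, edgeR). Behind them lay 3353 to 15415 counts per leaf library and 2367 to 2605 per EC library. Without leaf replicate 3 the log2 fold change was -2.89 (adjusted p = 9.08e-07, edgeR).

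Gypsy-19 stood at 561, 447 and 653 CPM in leaf and 159, 152 and 149 CPM in EC. All leaf libraries were above all EC libraries, and here leaf replicate 3 was the highest. The means were 554 ± 103 CPM in leaf and 153 ± 5.65 CPM in EC (mean ± SD, n = 3), 3.61-fold higher in leaf, with a log2 fold change of -1.85 (standard error 0.20, adjusted p = 0.00123, edgeR). Gypsy-28, the remaining family called higher in leaf, had 87.2, 74.5 and 183 CPM in leaf and 51.8, 49.2 and 52 CPM in EC. Its leaf libraries were also above its EC libraries, with leaf replicate 3 above both other leaf values, and the means were 115 ± 59.1 CPM in leaf and 51 ± 1.57 CPM in EC (mean ± SD, n = 3). Its log2 fold change of -1.17 (standard error 0.37, adjusted p = 0.0396, edgeR) moved to -0.64 (adjusted p = 4.91e-04, edgeR) without leaf replicate 3. Scaled by library size only, the value was -0.61 (adjusted p = 0.0622, edgeR), which ended the call. With any one of the EC libraries or leaf replicate 1 left out Gypsy-28 did not pass, with adjusted p-values of 0.0507 to 0.125 (edgeR).

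The families called higher in EC had log2 fold changes of 0.67 to 2.27, and 6 of the 12 differed at least 2-fold. Gypsy-4 led with 8.12, 8.43 and 12.5 CPM in leaf and 46, 47.3 and 46.2 CPM in EC. The EC values were close together and well above those of any leaf library. The means were 9.69 ± 2.45 CPM in leaf and 46.5 ± 0.715 CPM in EC (mean ± SD, n = 3), 4.8-fold higher in EC, with a log2 fold change of 2.27 (standard error 0.21, adjusted p = 8.32e-04, edgeR). Gypsy-13 had 27.8, 24.2 and 45.9 CPM in leaf and 162, 154 and 141 CPM in EC. Its EC values rested on 4058 to 4220 counts per library, and leaf replicate 3 was again the highest of the leaf libraries. Its means were 32.6 ± 11.6 CPM in leaf and 152 ± 11 CPM in EC (mean ± SD, n = 3), 4.67-fold higher in EC, with a log2 fold change of 2.22 (standard error 0.28, adjusted p = 0.00198, edgeR). Its share of the Gypsy reads went from 0.994% in leaf to 4.77% in EC.

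Gypsy-20, at 4.55, 4.85 and 14.3 CPM in leaf and 33.1, 27.5 and 28.4 CPM in EC, was 3.76-fold higher in EC by its means. Leaf replicate 3 lay 3.03-fold above the mean of the other leaf libraries, though still under the EC libraries. The log2 fold change of 1.93 (standard error 0.50, adjusted p = 0.0214, edgeR) became 2.68 (adjusted p = 5.60e-06, edgeR) without that library. Gypsy-29 stood at 16.8, 16.9 and 31.6 CPM in leaf and 90.9, 70.3 and 64.1 CPM in EC. EC replicate 1 was the highest of its libraries and the tissues did not overlap. Its means were 3.45-fold apart, with a log2 fold change of 1.79 (standard error 0.32, adjusted p = 0.00606, edgeR).

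Among the families with fewer reads, Gypsy-11 had 7.42, 6.69 and 9.62 CPM in leaf and 19.7, 19.2 and 16.6 CPM in EC, a difference of 2.33-fold with a log2 fold change of 1.23 (standard error 0.20, adjusted p = 0.0046, edgeR). Gypsy-5, with only 14 to 27 counts per leaf library and 72 to 98 per EC library, had 1.19, 1.08 and 1.62 CPM in leaf and 2.77, 3.39 and 3.39 CPM in EC. In both families the tissues did not overlap. Gypsy-5 was 2.45-fold higher in EC, with a log2 fold change of 1.31 (standard error 0.27, adjusted p = 0.00962, edgeR). It did not pass without EC replicate 2 (adjusted p = 0.051, edgeR) or without EC replicate 3 (adjusted p = 0.0537, edgeR).

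The other families called higher in EC differed by less than 2-fold. Gypsy-9, which with Gypsy-26 held the most Gypsy reads of EC, stood at 277, 268 and 355 CPM in leaf and 489.9, 473 and 469 CPM in EC. All EC libraries were above all leaf libraries, and leaf replicate 3 was the nearest to them. The means differed 1.59-fold, with a log2 fold change of 0.67 (standard error 0.18, adjusted p = 0.0249, edgeR). Gypsy-33 had 111, 107 and 192 CPM in leaf and 260, 257 and 255 CPM in EC. The EC libraries were almost equal, with a CV of 1.05%, the lowest of the 35 families. The means differed 1.88-fold, with a log2 fold change of 0.91 (standard error 0.27, adjusted p = 0.0323, edgeR). Gypsy-32 had 21.7, 21.6 and 31.3 CPM in leaf and 43.1, 39.7 and 43.6 CPM in EC, with a log2 fold change of 0.76 (standard error 0.19, adjusted p = 0.0185, edgeR).

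Gypsy-1 was measured at 3.44, 2.54 and 3.94 CPM in leaf and 5.46, 6.96 and 6.75 CPM in EC, a difference of 1.93-fold with a log2 fold change of 0.96 (standard error 0.26, adjusted p = 0.0238, edgeR). Gypsy-17 was measured at 6.27, 6.17 and 10.5 CPM in leaf and 15.5, 12.2 and 15.1 CPM in EC, a difference of 1.86-fold with a log2 fold change of 0.90 (standard error 0.28, adjusted p = 0.0376, edgeR). Gypsy-15 was measured at 4.37, 5.23 and 6.95 CPM in leaf and 9.31, 9.75 and 9.52 CPM in EC, a difference of 1.73-fold with a log2 fold change of 0.79 (standard error 0.23, adjusted p = 0.0315, edgeR). In each of these families the tissues did not overlap and leaf replicate 3 was the highest leaf library. Gypsy-1, Gypsy-9, Gypsy-15, Gypsy-17, Gypsy-20, Gypsy-32 and Gypsy-33 passed with all libraries and without leaf replicate 3, but with any other single library left out their adjusted p-values were 0.0523 to 0.112 (edgeR).

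**Figure D3:**
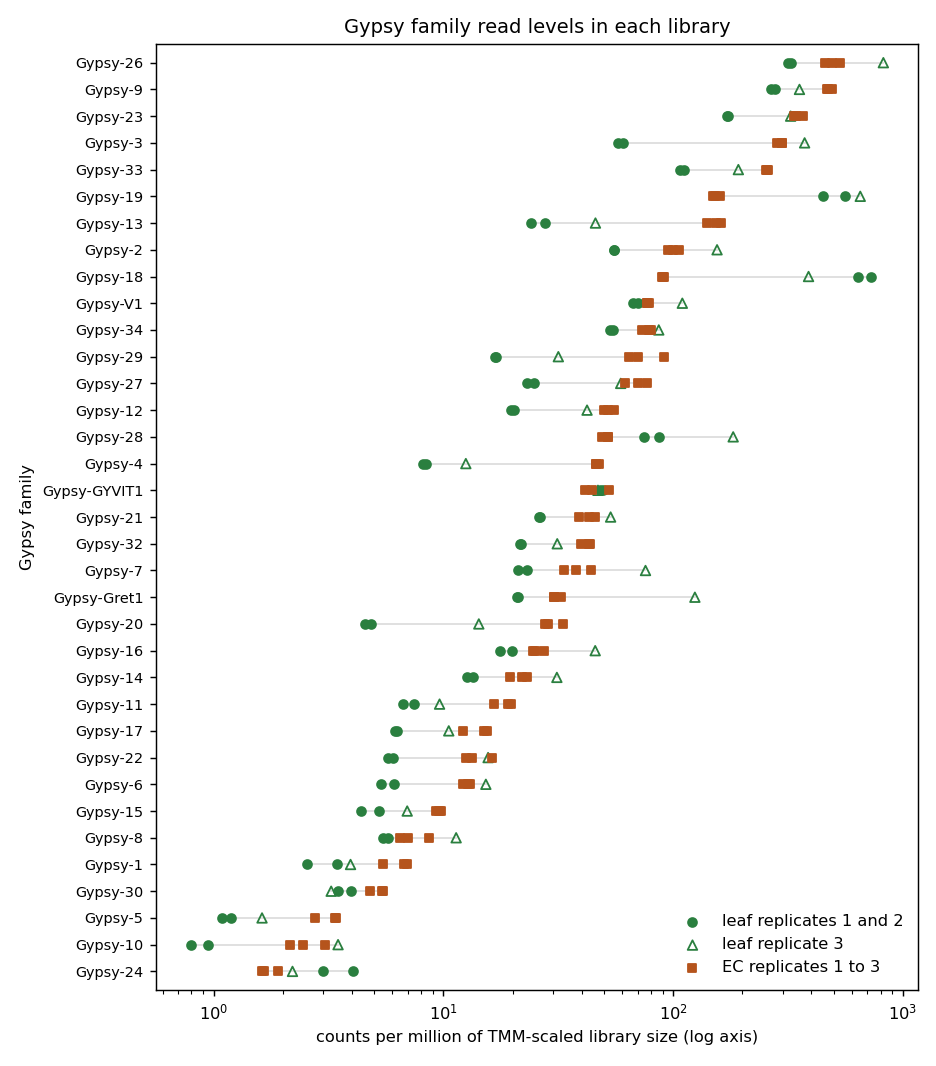
Level of the 35 tested Gypsy families (rows, ordered by their EC mean) in each library, in CPM on a log axis, with filled circles for leaf replicates 1 and 2, open triangles for leaf replicate 3 and squares for the EC replicates. Leaf replicate 3 lies above both other leaf libraries in 31 of the 35 families (88.6%), against 78.8% of the TE families other than Gypsy and 45% of all features tested.

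Several families with many reads did not pass the test. Gypsy-26, the family with the highest mean in EC, stood at 328, 317 and 823 CPM in leaf and 531, 460.3 and 493 CPM in EC. Leaf replicate 3 was the highest of all libraries and leaf replicates 1 and 2 the lowest, so the tissues overlapped in CPM. In RPM they did not, with 314, 307 and 541 RPM in leaf and 611, 549 and 588 RPM in EC. The log2 fold change of 0.017 (standard error 0.42, adjusted p = 0.976, edgeR) became 0.64 (adjusted p = 6.20e-04, edgeR) without leaf replicate 3. Gypsy-3 had the most extreme leaf replicate 3. It stood at 60.7, 57.8 and 374 CPM in leaf and 282, 299 and 298 CPM in EC, so leaf replicate 3 lay 6.31-fold above the mean of the other leaf libraries and also above every EC library in CPM. In RPM leaf replicate 3 was at 246 and below every EC library, the lowest of which was at 325. With all libraries its log2 fold change of 0.84 (standard error 0.79, adjusted p = 0.402, edgeR) did not pass, and without leaf replicate 3 it was 2.33 (adjusted p = 1.34e-06, edgeR), behind only Gypsy-20, Gypsy-13 and Gypsy-4 in that fit. Gypsy-23 had 171, 174 and 325 CPM in leaf and 366, 337 and 344 CPM in EC. Its EC libraries were all above its leaf libraries, leaf replicate 3 being close below them, and its log2 fold change of 0.65 (standard error 0.30, adjusted p = 0.117, edgeR) became 1.04 (adjusted p = 3.24e-05, edgeR) without that library.

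Gypsy-Gret1 stood at 21.2, 21 and 124 CPM in leaf and 30.2, 30.2 and 32.6 CPM in EC. Leaf replicate 3 was 5.9-fold above the mean of the other leaf libraries, which lay below all EC libraries. The raw counts showed it too, with 1073 in leaf replicate 3 against 446 and 479 in the other leaf libraries, which had more counted reads. The log2 fold change of -0.84 (standard error 0.76, adjusted p = 0.386, edgeR) did not pass, and its direction turned without leaf replicate 3, to 0.58 (adjusted p = 5.19e-04, edgeR). In RPM leaf replicate 3 was still 4.03-fold above the other leaf libraries. By its leaf mean Gypsy-Gret1 ranked 12 of the 36 families, and without leaf replicate 3 it ranked 18.

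The other 16 tested families also failed to pass, with log2 fold changes of -0.85 to 0.97, standard errors of 0.14 to 0.62 and adjusted p-values of 0.0562 to 0.974 (edgeR). Gypsy-12, Gypsy-24 and Gypsy-30 came nearest. Their log2 fold changes were 0.94, -0.85 and 0.54, their libraries did not overlap between the tissues, and DESeq2 gave them adjusted p-values of 0.034, 0.0165 and 0.0409. Of these Gypsy-24 was the one with the higher level in leaf, at 3, 4.05 and 2.2 CPM in leaf and 1.65, 1.62 and 1.9 CPM in EC, with 19 to 86 counts per library, and its tissues overlapped in RPM. Gypsy-27 was likewise separated, with its highest leaf library at 59.1 CPM, that of replicate 3, and its lowest EC library at 61.5 CPM, and had a log2 fold change of 0.97 (standard error 0.40, adjusted p = 0.0903, edgeR). The remaining families of this group, Gypsy-2, Gypsy-6, Gypsy-7, Gypsy-8, Gypsy-10, Gypsy-14, Gypsy-16, Gypsy-21, Gypsy-22, Gypsy-34, Gypsy-V1 and Gypsy-GYVIT1, overlapped between the tissues. In each but Gypsy-GYVIT1 leaf replicate 3 was the highest leaf library and the overlap came from it alone, as it did for Gypsy-3, Gypsy-26 and Gypsy-Gret1. In RPM, 12 of the 15 families that overlapped in CPM had all EC libraries above all leaf libraries, and Gypsy-7, Gypsy-16 and Gypsy-Gret1 still overlapped.

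Gypsy-GYVIT1 differed little between the tissues in CPM, with 49.5, 47.9 and 47.1 CPM in leaf and 52.5, 41.1 and 44.3 CPM in EC. In RPM its EC libraries were all above its leaf libraries, with 47.4, 46.5 and 30.9 RPM in leaf and 60.5, 49.1 and 52.8 RPM in EC. Its log2 fold change of -0.067 (standard error 0.14, adjusted p = 0.71, edgeR) remained near 0 without leaf replicate 3, at -0.062 (adjusted p = 0.627, edgeR). It was 0.38 with library sizes alone (adjusted p = 0.188, edgeR) and -0.71 with TE families modelled alone (adjusted p = 0.0555, edgeR). With 406 to 1366 counts per library, the standard error of 0.14 was the lowest of the 35 families. Gypsy-8 was the only other family called neither with all libraries nor without leaf replicate 3. Its log2 fold changes in these fits were -0.016 (adjusted p = 0.974, edgeR) and 0.42 (adjusted p = 0.0565, edgeR). A further 17 families without a call passed as higher in EC once leaf replicate 3 was left out, and Gypsy-24 as higher in leaf, at -1.01 (adjusted p = 0.00598, edgeR). Gypsy-31 did not pass the filter on low counts, and no test result is given for it. It had 1 count in leaf replicate 3, 0 in the other leaf libraries and 1, 4 and 5 in the EC replicates. A count of 3, the limit that a count of 0 allows, is worth 0.127 and 0.137 RPM in leaf replicates 1 and 2. With so few counts, no statement on a difference in this family is made.

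Variation among replicates was unlike in the tissues. The CV of the CPM over the 3 libraries was 1.05% to 18.7% in EC (median 7.13%) and 2.57% to 111% in leaf (median 39.2%), and 34 of the 35 families varied more in leaf. The share of other features that did so is not given here. Between leaf replicates 1 and 2 alone the median CV was 3.58%. The ratio of leaf replicate 3 to the mean of the others had a median of 1.88 over the Gypsy families, 1.59 over the other TE families and 0.974 over all features tested. It was highest in Gypsy-3, Gypsy-Gret1 and Gypsy-10 (6.31, 5.9 and 4) and below 1 in Gypsy-18, Gypsy-24, Gypsy-30 and Gypsy-GYVIT1 (0.571, 0.625, 0.87 and 0.966). In RPM the median over the Gypsy families was 1.28. On that scale, which uses no TMM factor, the ratio was 4.3 for Gypsy-3, 4.03 for Gypsy-Gret1 and 2.73 for Gypsy-10.

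Summed over the superfamily, gains and losses offset each other in part. In RPM, 31 families had the higher mean in EC and 5 in leaf (Gypsy-18, Gypsy-19, Gypsy-24, Gypsy-28 and Gypsy-Gret1). The gains summed to 1815 RPM and the losses to -739 RPM, of which Gypsy-18 and Gypsy-19 made 95%. Gypsy-9, Gypsy-23, Gypsy-3, Gypsy-26 and Gypsy-33 made 63.5% of the gains. The sum over all families was 2621, 2577 and 2855 RPM for leaf and 3786, 3718 and 3776 RPM for EC, 1.4-fold higher in EC. Without Gypsy-18 and Gypsy-19 it was 1475, 1439.8 and 2170 RPM for leaf and 3497, 3430.5 and 3491 RPM for EC, 2.05-fold higher in EC. The 9 possible ratios of single libraries had an SD of 0.393 around that value. Since the families left out were those with the largest losses, this value is a description and no test is given.

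These sums depended on the scaling. Over TMM-scaled library sizes the sum of all families gave a ratio of 0.983, with leaf replicate 3 at 4342 CPM above every EC library and leaf replicates 1 and 2 at 2736 and 2658 CPM below them (exact permutation test, two-sided, p = 1). Without Gypsy-18 and Gypsy-19 the values were 1540.2, 1485 and 3301 CPM in leaf and 3036, 2876 and 2927 CPM in EC, a ratio of 1.4 in which leaf replicate 3 again exceeded the EC libraries. Neither ratio is given here without leaf replicate 3, so the value of 0.983 does not show equal sums in the tissues. With library sizes alone in place of TMM factors, the median log2 fold change of all features moved from -0.041 to 0.42 and that of the Gypsy families to 1.15. Single families moved by unlike amounts, Gypsy-18 from -2.69 to -2.30 and Gypsy-3 from 0.84 to 1.53. Both scalings use the same counts, so the order of these medians on the second scale is not a separate result.

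**Figure D4:**
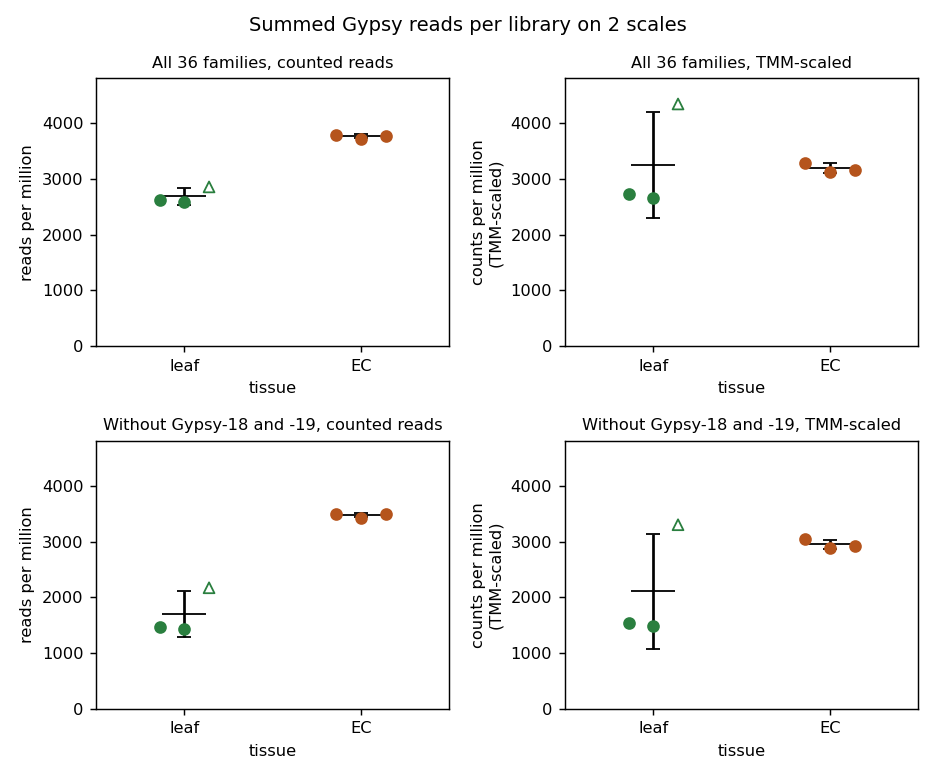
Summed Gypsy reads per library in leaf and EC, for all 36 families (top) and without Gypsy-18 and Gypsy-19 (bottom), in RPM (left) and in CPM (right), with points for libraries (open triangle, leaf replicate 3) and bars for the mean ± SD. The EC libraries lie above all leaf libraries on the left, and leaf replicate 3 lies above the EC libraries on the right.

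Set against the other TE families, Gypsy held less of the TE reads in EC. Its share of all TE reads was 17.9% (95% Wilson interval 17.7% to 18%), 17.5% (95% Wilson interval 17.4% to 17.7%) and 16.7% (95% Wilson interval 16.6% to 16.9%) in leaf replicates 1, 2 and 3. In EC replicates 1, 2 and 3 it was 12.9% (95% Wilson interval 12.8% to 13%), 12.2% (95% Wilson interval 12.1% to 12.2%) and 11.8% (95% Wilson interval 11.7% to 11.8%). Reads amplified from one fragment are not independent molecules, so counting error alone is covered. The means were 17.4 ± 0.584% for leaf and 12.3 ± 0.578% for EC (mean ± SD, n = 3), with all leaf libraries above all EC libraries (exact permutation test, two-sided, p = 0.1, adjusted p = 0.129). Gypsy reads per Copia read were 0.677, 0.659 and 0.576 for leaf and 0.474, 0.448 and 0.432 for EC, 0.708-fold in EC relative to leaf (p = 0.1 by the same exact test). Without Gypsy-18 and Gypsy-19 the difference in the share of TE reads was -0.147 percentage points in place of -5.1, and the ratio for Gypsy over Copia was 1.05. These were the families with the largest losses, so a shift in this direction was fixed in advance. No family was left out of the other superfamilies, and these values are a description.

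Family by family, the middle of the Gypsy changes lay among those of the other superfamilies. The median log2 fold change was 0.63 for the 35 Gypsy families, 0.39 for 97 Copia families, 0.57 for 10 LINE families and 0.79 for 30 MULE families. A positive value was found for 25 of the 35 Gypsy families and 69 of the 97 Copia families. Gypsy families reached from -2.69 to 2.27 and Copia families from -2.15 to 4.73, whereas LINE families kept between 0.41 and 0.76. These are descriptions of the lists, and the difference between superfamilies was not tested. TE families were also modelled alone, which sets each family against the other TE families and not against genes. The Gypsy median was then 0.071 and that of the TE families other than Gypsy -0.022, since this scaling places the middle of the TE families near 0. In that fit 8 Gypsy families were called in each direction. The share of the other TE families called in it is not given here, so these counts do not set Gypsy apart. Those higher in leaf were then Gypsy-18, Gypsy-19 and Gypsy-28 together with Gypsy-8, Gypsy-16, Gypsy-24, Gypsy-34 and Gypsy-V1, and of the 12 families called higher in EC relative to genes, 7 remained so relative to TE families (Gypsy-4, Gypsy-5, Gypsy-11, Gypsy-13, Gypsy-20, Gypsy-29 and Gypsy-33).

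**Figure D5:**
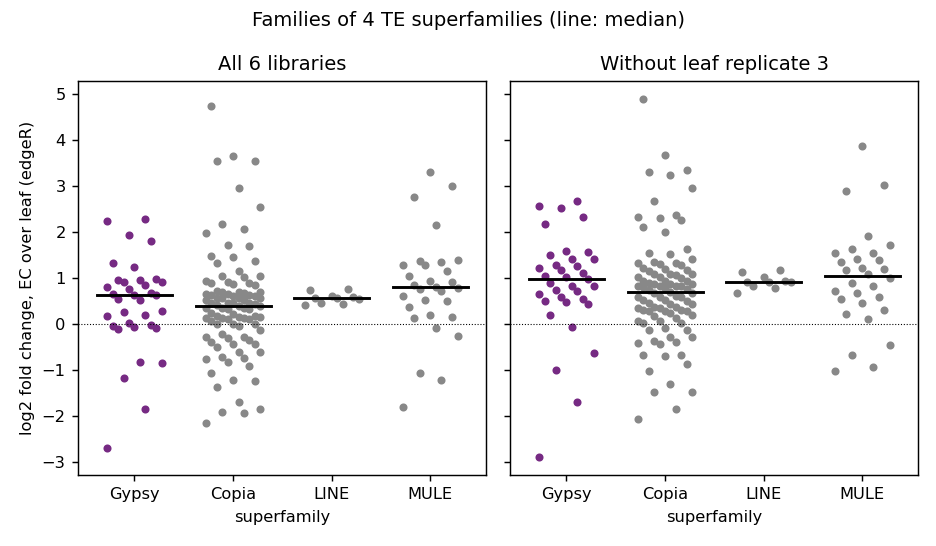
Log2 fold change of EC over leaf (vertical axis, edgeR) for the tested families of the Gypsy, Copia, LINE and MULE superfamilies (points, black line at the median), with all libraries (left) and without leaf replicate 3 (right). The Gypsy median is 0.63 on the left and 0.98 on the right, and Gypsy-18 is the lowest Gypsy point in both panels.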

How the data were processed

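RNA of 3 leaf and 3 EC samples, depleted of ribosomal RNA, was sequenced as stranded read pairs. The authors trimmed the reads and discarded those from tRNA or rRNA. Mapping to the PN40024 reference was with HISAT2, up to many positions per read, and TEtranscripts counted genes and annotated TE families in 1 step. The deposited values are raw counts without normalisation, in 6 columns, beside 0 other columns of values per sample. A pair of chloroplast-like genes that the authors removed was not used here. Whether the counting used strand is not given in the sources used here. Reads with several positions were already divided among families, so families of like sequence can share reads.

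Tissue and replicate numbers were taken from the labels. P-values measure the spread between samples that are each a pool. The whole table was fitted with edgeR 4.0.16 in R 4.3.3, using TMM factors, filterByExpr (minimum count 10, minimum total 15), robust glmQLFit, glmQLFTest and Benjamini-Hochberg adjustment, and a family was called at an adjusted p under 0.05. The common biological coefficient of variation was 0.419. The standard error is the absolute log2 fold change over the root of F. The fit was tested on simulated data with known changes, which had less spread than these data and no outlying library. That test checks the code and does not tell how sure the calls are here. Single values per library were compared by exact permutation (scipy 1.17.1). Wilson intervals have a level of 95%. CPM divide counts by library size times TMM factor and RPM by all counted reads, per 1000000. Figures were drawn with matplotlib 3.10.9.

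The members, comparison lists and tests were chosen with earlier results of these data known. Full values are given for every family with an adjusted p under 0.05, for the 5 with the highest mean level in either tissue and for Gypsy-Gret1, and the others are given by ranges and counts. The fit was repeated with DESeq2 1.42.0, with its size factors, with no factors, with TMM factors of the genes, on TE families alone, without the filter or with 10 counts in each library, with limma-voom (3.58.1), with a block for the replicate number, with a 2-fold limit and without each library. For sums and shares, denominators and leading families were changed. Sample weights in limma-voom were added after seeing the data. Sequences of the families were not used here.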

Additional observations from a re-analysis of the deposited data

How the results depend on the processing

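The number of Gypsy families called higher in EC was 12 with all libraries, 4 to 29 with a library left out (29 without leaf replicate 3), 22 with library sizes alone, 29 with limma-voom and sample weights, in which leaf replicate 3 had a weight of 0.0577 against 1.06 to 2.71, 7 with the replicate number as a block and 6 with a 2-fold limit. It was 12 to 14 with DESeq2 or its size factors, TMM factors of the genes, other filters on low counts and limma-voom. The number higher in leaf was 3, 2 to 4 with a library left out, 8 with TE families alone and 2 with library sizes alone or with the replicate block, in which Gypsy-28 had an adjusted p of 0.0662 (edgeR). It was 4, with Gypsy-24 added, with DESeq2 or its size factors, with 10 counts in every library and with limma-voom with or without sample weights. With TMM factors of the genes, without the filter and with the 2-fold limit it was 3. Above, the share of all features called accompanies the TMM fit, the same fit lacking leaf replicate 3, and the fit on unscaled library sizes. For the other settings it is not given here, so those counts do not set the Gypsy families apart from other features. No pairing was given by the labels, and the samples share only a replicate number. The correlations of same-numbered deviations over all features were -0.00554, 0.106 and 0.109, and leaf replicate 1 did not correlate best with its own number. Leaf replicates 1 and 2 gave nearly the same correlation with each EC library, and leaf replicate 3 nearly the opposite. These values therefore cannot show whether the samples were paired. The ratio of summed Gypsy RPM was 1.4, 0.983 over TMM-scaled library sizes, 2.05 without Gypsy-18 and Gypsy-19 and 1.73 without Gypsy-18 and Gypsy-26, the families with the most reads in either tissue. The share of TE reads differed by -5.1 percentage points, by -7.27 over TE reads without LINE and by -0.147 without Gypsy-18 and Gypsy-19, where the Gypsy to Copia ratio of EC over leaf was 1.05 in place of 0.708. With a library left out the RPM ratio was 1.37 to 1.45.

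No called family changed its direction under any alternative. The log2 fold change of some families without a call did. With DESeq2 it was -0.021 for Gypsy-26. With DESeq2's size factors it was -0.040 for Gypsy-26. With library sizes alone it was 0.42 for Gypsy-V1, 0.38 for Gypsy-GYVIT1, 0.56 for Gypsy-7, 0.46 for Gypsy-16 and 0.52 for Gypsy-8. With TE families modelled alone it was -0.47 for Gypsy-26, -0.29 for Gypsy-2, -0.31 for Gypsy-34, -0.25 for Gypsy-21, -0.32 for Gypsy-14 and -0.13 for Gypsy-30. Without a filter on low counts it was 0.00045 for Gypsy-7 and 0.030 for Gypsy-8. With 10 counts required in every library it was 0.0081 for Gypsy-8. With limma-voom it was 0.35 for Gypsy-7, 0.15 for Gypsy-16 and 0.16 for Gypsy-8. With limma-voom and sample weights it was 0.17 for Gypsy-V1, 0.55 for Gypsy-Gret1, 0.74 for Gypsy-7, 0.45 for Gypsy-16 and 0.44 for Gypsy-8. With the replicate block it was 0.21 for Gypsy-7, 0.027 for Gypsy-16 and 0.050 for Gypsy-8. With a library left out the range was -0.21 to 0.64 for Gypsy-26, -0.068 to 0.88 for Gypsy-2, -0.21 to 0.20 for Gypsy-V1, -0.15 to 0.036 for Gypsy-GYVIT1, -1.23 to 0.58 for Gypsy-Gret1, -0.35 to 0.82 for Gypsy-7, -0.35 to 0.47 for Gypsy-16, -0.049 to 0.74 for Gypsy-14 and -0.20 to 0.42 for Gypsy-8. The cause of these changes was not tested. Gypsy-31 had too few counts to pass the filter.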
